A study of Mus musculus with 14 samples.

Results

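Ectoenzyme genes of lymphoid cells were followed through 14 RNA-seq libraries of mouse thymus, taken from T-cell leukaemia (T-ALL) models that overexpress Lmo2 and from healthy animals: Bst1, Cd38, Entpd1, Nt5e and Enpp1. These are 5 of the 6 genes in the set, out of 46946 genes listed in the count table. They were taken by name, as enzymes that break down NAD or nucleotides outside the cell. Bst1 had already stood out for its level in the tumours, so the values of these genes against wild type are a description and carry no p-value.

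The libraries came from 4 models and a control. Rosa26-Lmo2+Sca1-Cre mice (3 libraries, 9 months of age) carry an Lmo2 cDNA at the Rosa26 locus that Cre switches on, with Cre driven by Sca1 in haematopoietic stem cells. Sca1-Lmo2 mice (4 libraries, 7 to 8 months) express Lmo2 directly from Sca1 regulatory sequences, with no Cre. The study reports that the leukaemic cells of this model no longer expressed Lmo2. In Rosa26-Lmo2+Mb1-Cre mice (2 libraries, 20 months) Cre is expressed in early B cells, and in Rosa26-Lmo2+Aid-Cre mice (1 library, 22 months) in germinal centre B cells. The wild type (WT) controls (4 libraries, 4 months) were healthy thymus, and all mice were of the C57BL/6;CBA strain. Age differed between the groups and was lowest in WT, so age and genotype cannot be told apart. The labels describe whole frozen thymus, whereas the study's methods name blast cells for the models. The labels do not say whether the libraries of a group came from separate animals. The study gives these same numbers for each group as mice in its RNA-seq. The p-values measure the spread between these libraries.

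Library totals lay between 42985130 and 47667663 counts. Reads were counted over each gene's whole span without regard to strand. Reads over 10 long nerve-cell genes, used as a gauge of reads from outside transcripts, stood highest in the third Rosa26-Lmo2+Sca1-Cre library, at 0.808 per kb, and at 0.0400 to 0.183 per kb in the other libraries. Summed T cell markers (8 genes) reached 4552 to 18496 CPM (counts scaled to a common library total) in the 10 tumour libraries and 7883 to 12292 CPM in WT. The Lmo2 gene itself had 181 to 418 counts in Rosa26-Lmo2+Sca1-Cre, 458 to 867 in Sca1-Lmo2, 171 and 233 in the Rosa26-Lmo2+Mb1-Cre pair and 1064 with Rosa26-Lmo2+Aid-Cre, against 82 to 234 counts in WT. In these raw counts, replicate 2 of Rosa26-Lmo2+Sca1-Cre and both Rosa26-Lmo2+Mb1-Cre libraries lay within the WT range, and the other 7 tumour libraries lay above it. The counts are not scaled as the CPM are, and that scaling raises replicate 2 of Rosa26-Lmo2+Sca1-Cre and of Rosa26-Lmo2+Mb1-Cre relative to WT. Their place beside WT is therefore not settled by the raw counts. Throughout, CPM were scaled by the trimmed mean of M values (TMM), fold changes are log2 values from 1 edgeR fit over 17087 genes, and "called" means an adjusted p under 0.05.

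Ectoenzymes sit on the cell surface and act on NAD, ATP and their products in the surrounding fluid. BST1 (CD157) and CD38 are related enzymes that split NAD and form ADP-ribose and cyclic ADP-ribose, which acts on calcium release in the cell. ENTPD1 (CD39) removes phosphates from ATP and ADP, NT5E (CD73) turns the AMP into adenosine, and ENPP1 splits ATP into AMP and pyrophosphate.

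Bst1 was far higher in every tumour library than in every WT library. It reached 167, 255 and 190 CPM in Rosa26-Lmo2+Sca1-Cre, against 2.56, 3.53, 1.91 and 2.87 CPM in WT. The Sca1-Lmo2 libraries held 143, 178, 144 and 75.4 CPM. The Rosa26-Lmo2+Mb1-Cre libraries held 301 and 367 CPM, and the Rosa26-Lmo2+Aid-Cre library 303 CPM. The lowest tumour library, Sca1-Lmo2 replicate 4, was 21.4 times as high as the highest WT library. By that ratio Bst1 ranked 3 of the 17022 tested genes with more than 3 counts in at least 1 WT library. Of all genes tested, 4.95% had all 10 tumour libraries above all 4 WT libraries.

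In group means, Bst1 came to 204 ± 45.5 CPM in Rosa26-Lmo2+Sca1-Cre (SD, n = 3), 135 ± 43 CPM in Sca1-Lmo2 (SD, n = 4) and 334 ± 46.4 CPM in Rosa26-Lmo2+Mb1-Cre (SD, n = 2), against 2.72 ± 0.672 CPM in WT (SD, n = 4). The log2 fold change over WT was 6.23 (SE 0.342, 75.1-fold) in Rosa26-Lmo2+Sca1-Cre. It was 5.64 (SE 0.327, 49.8-fold) in Sca1-Lmo2 and 6.94 (SE 0.361, 123-fold) in Rosa26-Lmo2+Mb1-Cre. The 3 comparisons share the WT libraries. As background, 17.7%, 15.7% and 30.9% of all tested genes had every library above WT in these 3 comparisons, and 96, 100 and 38 genes had a fold change at least as large as that of Bst1. In bulk tissue, more cells of a type and more RNA per cell cannot be told apart.

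**Figure D1:**
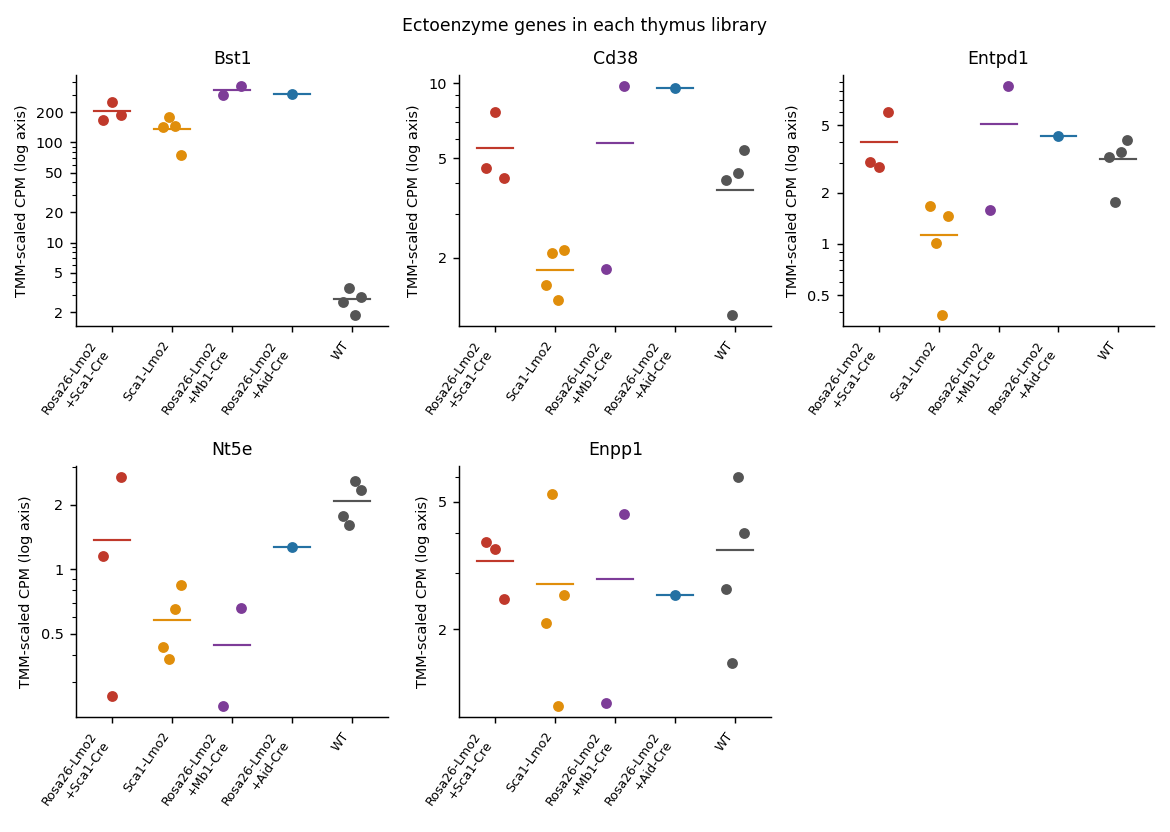
TMM-scaled CPM (log axis) of each ectoenzyme gene in every library, grouped by genotype with WT at the right, 1 point per library and a bar at each group mean. All 10 tumour libraries hold Bst1 at 75.4 CPM or more, against 3.53 CPM or less in WT, while Nt5e is below every WT library in 9 of 10 tumour libraries and the other genes have tumour libraries within the WT range.

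BST1 was first named for bone marrow stromal cells and is also known on myeloid cells, so markers of such cells were read beside it. The list of stroma and endothelium markers (9 genes, 6 tested) did not behave as 1 unit. Its summed level was at 88.2 to 196 CPM in the tumour libraries and 117 to 126 CPM in WT, most of it from Pecam1, which averaged 115 CPM in WT. Of the 6 tested, 5 were higher and 1 lower in Rosa26-Lmo2+Sca1-Cre than in WT, 2 were higher in Sca1-Lmo2, and 3 were higher and 1 lower in Rosa26-Lmo2+Mb1-Cre. Over all genes, 26.9% were called in Rosa26-Lmo2+Sca1-Cre (16.5% higher, 10.4% lower). In Sca1-Lmo2 it was 22.3% (12.1% higher, 10.2% lower), and with Rosa26-Lmo2+Mb1-Cre it was 35.1% (19.7% higher, 15.4% lower). These shares are the background to every count of called list genes against WT. Col1a1, a collagen gene of fibroblasts, averaged 7.75 CPM in Rosa26-Lmo2+Sca1-Cre, 1.94 CPM in Sca1-Lmo2 libraries and 3.67 CPM in those of Rosa26-Lmo2+Mb1-Cre, against 0.644 CPM in WT. Among these models Col1a1, 1 gene of this list, was lowest in Sca1-Lmo2, as Bst1 was. It was highest in Rosa26-Lmo2+Sca1-Cre, whereas Bst1 was highest in Rosa26-Lmo2+Mb1-Cre. With the summed list, Bst1 had r = -0.01 over the 14 libraries and r = -0.67 over the 10 tumour libraries. The part of stromal cells in the Bst1 level was not tested.

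Of the macrophage and monocyte markers (9 genes), 3 were called higher in Rosa26-Lmo2+Sca1-Cre than in WT and 6 in Rosa26-Lmo2+Mb1-Cre, the model with the highest Bst1, and 0 were lower. None of the 9 was called in Sca1-Lmo2, where their sum was at 68.3 to 177 CPM, against 116 to 258 CPM in WT, and where Bst1 was 49.8-fold higher. Bst1 followed the summed markers with r = 0.38 over the 14 libraries and r = 0.64 over the 10 tumour libraries, which share their group structure. Of the neutrophil markers (7 genes), the 6 tested were all called higher in Rosa26-Lmo2+Sca1-Cre than in WT, and their summed level reached 1399 CPM in its replicate 3. They were at 2.57 and 4.67 CPM in Rosa26-Lmo2+Mb1-Cre, against 5.07 to 22.7 CPM in WT, and these Rosa26-Lmo2+Mb1-Cre libraries included the highest Bst1 value. Summed markers of early thymic progenitors (8 genes) were at 40.8 to 1284 CPM in the tumour libraries and 44.3 to 62.7 CPM in WT. Of these 8, 3 were called higher in Sca1-Lmo2 than in WT and 0 in the other replicated models. Bst1 had r = 0.54 with their sum over the 14 libraries and r = 0.07 over the 10 tumour libraries. No gene of these 4 lists had 0 counts throughout a group, and their part in the Bst1 level beyond these values was not tested. With markers of NK and cytotoxic cells Bst1 had r = 0.57 over the 14 libraries and -0.12 over the tumour libraries. With markers of thymic epithelium the values were -0.70 and -0.22.

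Among the models, Bst1 was 2.47-fold higher in Rosa26-Lmo2+Mb1-Cre than in Sca1-Lmo2, with no overlap (log2 fold change 1.30, SE 0.315, edgeR adjusted p = 0.0305). In that comparison 10.5% of all genes were called. The call depended on single libraries. It was lost without Rosa26-Lmo2+Mb1-Cre replicate 2 (1.15, adjusted p = 0.238), which left that arm with 1 library assumed to vary like the other groups, and without Sca1-Lmo2 replicate 1 (1.33, adjusted p = 0.0733). Rosa26-Lmo2+Sca1-Cre lay between these models and was not called against either. The log2 difference was -0.59 (SE 0.286, adjusted p = 0.181) for Sca1-Lmo2 over Rosa26-Lmo2+Sca1-Cre and 0.71 (SE 0.340, adjusted p = 0.304) for Rosa26-Lmo2+Mb1-Cre over Rosa26-Lmo2+Sca1-Cre. In the last of these the libraries did not overlap, as for 12.6% of all genes, and 0.211% of all genes were called. Bst1 was above every Sca1-Lmo2 library in both Rosa26-Lmo2+Mb1-Cre libraries, as were 19.4% of all genes.

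**Figure D2:**
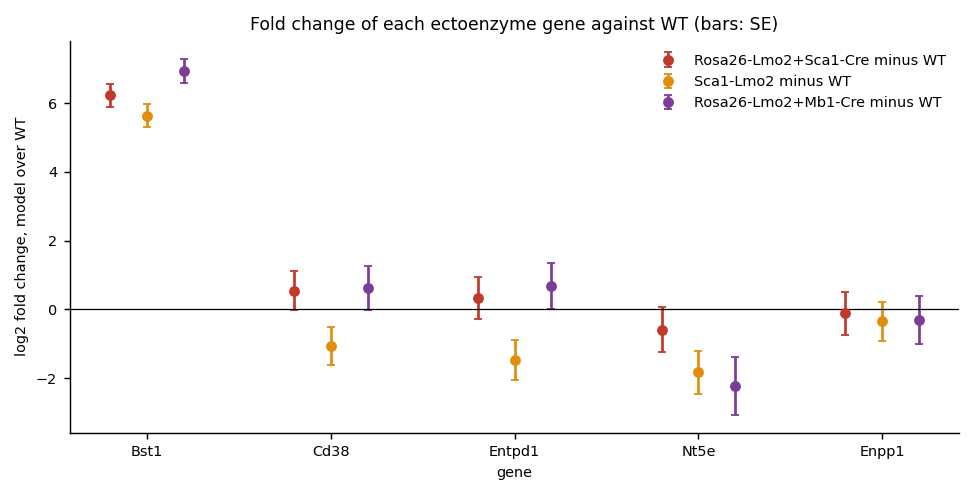
Log2 fold change of each ectoenzyme gene in 3 models over WT, with 1 point per model and bars of 1 SE. Bst1 lies between 5.64 and 6.94, and the values of the other 4 genes lie between -2.23 and 0.68.

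Bst1 lies on chromosome 5 at 43818885 to 43843986 on the forward strand (mm10/GRCm38), and Cd38 starts 24.6 kb after its end, at 43868553 to 43912375 on the same strand. The first 2754 bases of the Bst1 span are shared with the end of the span of Fbxl5, a ubiquitin ligase subunit gene of iron regulation on the reverse strand. Fbxl5 had 1861 to 5805 counts per library and was not called in any model against WT (log2 fold changes 0.35, 0.35 and 0.52). Without TMM, its value in Rosa26-Lmo2+Sca1-Cre turned to -0.024. In WT, all reads counted for Bst1 came to 101 to 178 per library, which bounds the Fbxl5 reads that its span could have taken up there.

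Cd38 did not show the pattern of Bst1. Cd38 had 4.59, 7.68 and 4.19 CPM in Rosa26-Lmo2+Sca1-Cre, against 4.09, 1.19, 4.37 and 5.38 CPM in WT. The Sca1-Lmo2 libraries held 1.56, 2.1, 1.36 and 2.15 CPM of Cd38, the Rosa26-Lmo2+Mb1-Cre libraries 1.80 and 9.75 CPM, and the Rosa26-Lmo2+Aid-Cre library 9.53 CPM. The 3 replicated models overlapped with WT, and only 3 of the 10 tumour libraries were above the highest WT library. The log2 fold change over WT was 0.55 (SE 0.576) in Rosa26-Lmo2+Sca1-Cre, -1.07 (SE 0.544) in Sca1-Lmo2 and 0.62 (SE 0.644) in Rosa26-Lmo2+Mb1-Cre. Without Rosa26-Lmo2+Mb1-Cre replicate 2 the value of Cd38 in that model turned to -1.06.

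The promoter of Cd38 is shown because this gene overlapped with WT in each replicated model, beside a neighbour that did not. RefSeq (GRCm38.p6) gives it at chr5:43868559-43868858 on the forward strand, from 250 bases before to 50 bases after the start that RefSeq gives, 43868809, which lies inside the span listed in the count table, with motif matches in capitals.
Cd38: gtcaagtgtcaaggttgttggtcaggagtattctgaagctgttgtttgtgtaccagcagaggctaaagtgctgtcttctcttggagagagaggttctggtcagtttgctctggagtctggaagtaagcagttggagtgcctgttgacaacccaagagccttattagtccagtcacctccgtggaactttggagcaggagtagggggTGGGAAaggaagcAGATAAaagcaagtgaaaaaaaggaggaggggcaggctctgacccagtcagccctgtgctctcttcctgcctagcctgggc
It holds TGGGAA, the core read by the NOTCH partner RBPJ. It also holds AGATAA, which factors of the GATA family read. Each occurs once, without overlap. Searched on both strands, these letters occur in 25.6% and 11.2% of 32851 mouse promoters of the same length. The RUNX motif TGTGGT was not found in this window, nor was the E-box CAGCTG, the E-box variant CAGGTG or the MYC motif CACGTG (the last in 7.15% of promoters). Promoter entries were found for 4 of the 5 genes described, and Bst1 had none.

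Another transcript beside Bst1 did move with it. Gm42555, a non-coding RNA gene annotated as a lincRNA with 1 exon of 1039 bases, lies on the reverse strand 10.1 kb before the Bst1 start, inside the span of Fbxl5 but outside the Fbxl5 exons. It had 5.44, 4.66 and 7.52 CPM in Rosa26-Lmo2+Sca1-Cre, against 0.227, 0.0396, 0.0756 and 0.264 CPM in WT. The Sca1-Lmo2 libraries held 1.58, 1.94, 2.42 and 1.82 CPM, and the Rosa26-Lmo2+Mb1-Cre libraries 15.4 and 6.46 CPM. No tumour library overlapped with WT, where the transcript had 2 to 14 counts.

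In the edgeR fit Gm42555 rose by 5.25 in Rosa26-Lmo2+Sca1-Cre (SE 0.61, adjusted p = 9.94e-04), by 3.65 in Sca1-Lmo2 (SE 0.56, adjusted p = 1.79e-03) and by 6.14 in Rosa26-Lmo2+Mb1-Cre (SE 0.64, adjusted p = 4.14e-04), against WT in each case. These calls held under all alternatives run for them. No WT library reached 1 CPM of Gm42555, so it passed the filter through tumour libraries alone. The p-values against WT carry that limit. Gm42555 was also 2.49 higher in Rosa26-Lmo2+Mb1-Cre than in Sca1-Lmo2 (SE 0.57, adjusted p = 0.0272), as Bst1 was. That call was lost without either Rosa26-Lmo2+Mb1-Cre library and without Sca1-Lmo2 replicate 1 or 2 (adjusted p up to 0.128 over all alternatives). Because the counting ignored strand and included introns, reads of Gm42555 and of the Fbxl5 intron around it cannot be told apart.

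Of the 36 other genes listed within 500 kb of Bst1 and Cd38, 10 were tested. Gm42555 was the only one called higher in Rosa26-Lmo2+Sca1-Cre and in Sca1-Lmo2, where 16.5% and 12.1% of all genes were called higher than in WT. In Rosa26-Lmo2+Mb1-Cre, where 19.7% of all genes were called higher, Gm42555 and Gm5292 were called higher than in WT. Both entered the fit largely through tumour libraries, with at most 0.264 and 0.888 CPM in WT. For Gm5292, a predicted gene, the log2 fold change was large and uncertain (4.41, SE 1.49, adjusted p = 0.0380), a call lost without either Rosa26-Lmo2+Mb1-Cre library or without WT replicate 1, 2 or 4 (adjusted p up to 0.152 over all alternatives). Prom1, the surface glycoprotein gene of stem and epithelial cells, was called lower in Sca1-Lmo2 than in WT (-1.05, SE 0.33, adjusted p = 0.0385, up to 0.119 over all alternatives), where 10.2% of all genes were called lower. It was also lower in Sca1-Lmo2 than in Rosa26-Lmo2+Sca1-Cre (-1.50, SE 0.35, adjusted p = 0.0250, up to 0.104) and higher in Rosa26-Lmo2+Mb1-Cre than in Sca1-Lmo2 (1.41, SE 0.38, adjusted p = 0.0404, up to 0.195). Each of these 3 calls was lost without Sca1-Lmo2 replicate 1 or 2. The calls against WT and with Rosa26-Lmo2+Mb1-Cre were also lost without Sca1-Lmo2 replicate 4, the first of them without WT replicate 1, 2 or 4 and the second without either Rosa26-Lmo2+Mb1-Cre library.

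**Figure D3:**
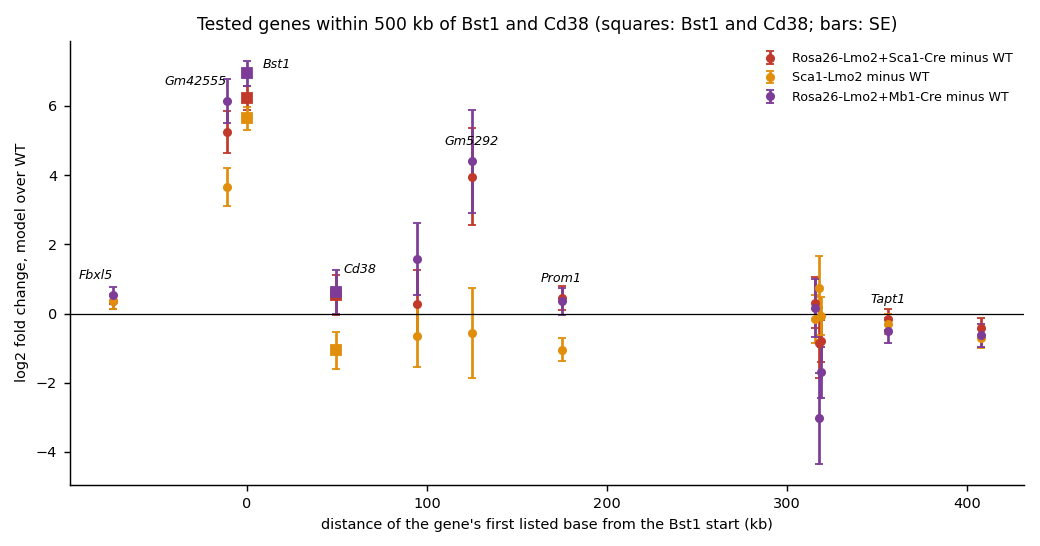
Log2 fold change over WT (bars of 1 SE) of the tested genes within 500 kb of Bst1 and Cd38, against the distance in kb of each gene's first listed base from the Bst1 start, with 1 colour per model and squares for Bst1 and Cd38. Bst1 (5.64 to 6.94) and Gm42555 (3.65 to 6.14) stand high in all 3 models, while Cd38 lies between -1.07 and 0.62.

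Entpd1 varied among the tumours much as Cd38 did. This gene spans 129 kb on chromosome 19 (40612366 to 40741602, forward strand). It had 3.04, 2.83 and 6.02 CPM in Rosa26-Lmo2+Sca1-Cre, against 3.26, 1.76, 3.46 and 4.10 CPM in WT. The Sca1-Lmo2 libraries held 1.67, 1.01, 0.384 and 1.47 CPM, all below WT, and the Rosa26-Lmo2+Mb1-Cre libraries 1.59 and 8.52 CPM. The Rosa26-Lmo2+Aid-Cre library held 4.31 CPM. The log2 fold change over WT was 0.33 (SE 0.609) in Rosa26-Lmo2+Sca1-Cre, -1.47 (SE 0.581) in Sca1-Lmo2 and 0.68 (SE 0.678) in Rosa26-Lmo2+Mb1-Cre. Single libraries turned the direction of Entpd1, to -0.10 in Rosa26-Lmo2+Sca1-Cre without replicate 3 and to -0.98 in Rosa26-Lmo2+Mb1-Cre without replicate 2. In Rosa26-Lmo2+Sca1-Cre replicate 3, reads from outside transcripts could account for 34.6% of the Entpd1 counts.

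Cd38 and Entpd1 were both lower in every Sca1-Lmo2 library than in every Rosa26-Lmo2+Sca1-Cre library, as were 9.9% of all genes. Neither was called. The difference was -1.61 for Cd38 (SE 0.581, adjusted p = 0.0884) and -1.81 for Entpd1 (SE 0.616, adjusted p = 0.0769). Called genes made up 9.89% of those tested in this comparison. With DESeq2 both passed, with adjusted p of 0.0332 for Cd38 and 0.0233 for Entpd1. Rosa26-Lmo2+Mb1-Cre over Sca1-Lmo2 gave 1.69 for Cd38 (SE 0.635, adjusted p = 0.0943) and 2.15 for Entpd1 (SE 0.670, adjusted p = 0.0570). Rosa26-Lmo2+Mb1-Cre replicate 1 lay within the Sca1-Lmo2 range of both genes and replicate 2 above it. DESeq2 called both (adjusted p of 0.0460 and 0.0143). Without Rosa26-Lmo2+Mb1-Cre replicate 1 both were called (adjusted p of 0.0375 and 0.0284), and without replicate 2 the differences came to 0.0079 and 0.49.

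Markers of macrophages and monocytes, cells that express CD38 and CD39, moved with these genes. The summed markers (9 genes, none at 0 throughout a group) were at 503, 639 and 319 CPM in the Rosa26-Lmo2+Sca1-Cre libraries, at 115, 68.3, 119 and 177 CPM in the Sca1-Lmo2 libraries, at 302 and 1264 CPM in the Rosa26-Lmo2+Mb1-Cre pair and at 439 CPM with Rosa26-Lmo2+Aid-Cre, against 258, 116, 199 and 158 CPM in WT. Of the 9 markers, 4 were called lower in Sca1-Lmo2 than in Rosa26-Lmo2+Sca1-Cre and none higher. Over the 14 libraries the log2 levels followed the summed markers with r = 0.79 for Cd38 and 0.73 for Entpd1, and over the 10 tumour libraries with 0.85 and 0.82. Without the 2 libraries farthest from the median marker level, the values over 12 libraries were 0.76 and 0.53. Cd38 and Entpd1 followed each other with r = 0.82 over the 14 libraries. Their part in the levels of Cd38 and Entpd1 was not tested.

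**Figure D4:**
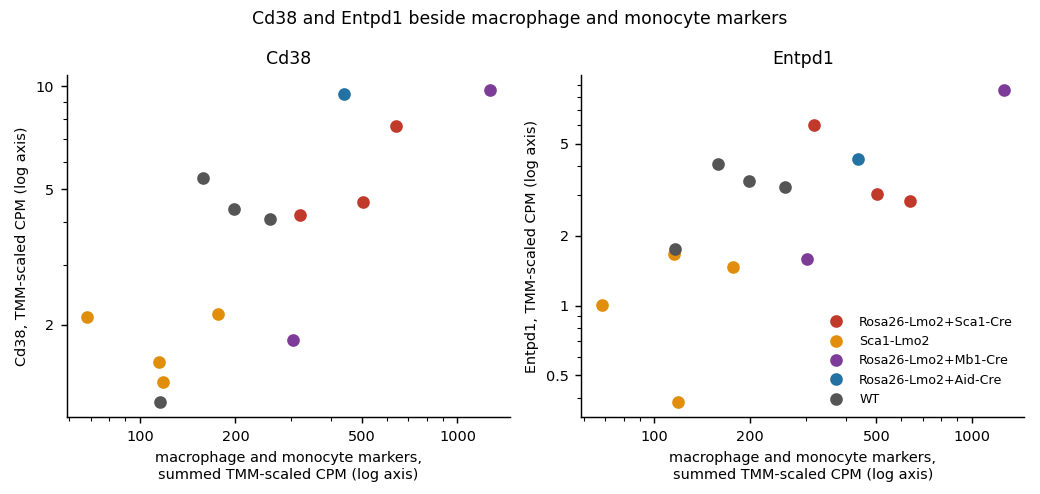
Cd38 (left) and Entpd1 (right) in TMM-scaled CPM against the summed TMM-scaled CPM of 9 macrophage and monocyte markers, both on log axes, with 1 point per library coloured by genotype. Rosa26-Lmo2+Mb1-Cre replicate 2 has the highest value on every axis (9.75 CPM of Cd38, 8.52 CPM of Entpd1 and 1264 CPM of markers), and the Sca1-Lmo2 libraries lie at the low end.

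Of the genes averaging 1 or more in log2 CPM, those whose pattern over the 14 libraries was most like that of Cd38 were Tgm2 (r = 0.91), Rab3il1 (0.91), Gpr137b (0.91), Plek (0.91) and Mpeg1 (0.89). Those nearest to Entpd1 were Csf2rb (0.93), Scaper (0.92), Lactb2 (0.91), Rin2 (0.91) and Cd300lf (0.90). Mpeg1, a pore-forming protein gene of macrophages, spanned 6.41 to 59.8 CPM in the tumour libraries and 13.9 to 26.5 CPM in WT. For Bst1 they were Wdr25 (r = 0.95), Cpeb1 (0.95), Nudt19 (0.94), Psmd14 (0.94) and Prtg (0.93). The WT and tumour levels of each of these 5 genes did not overlap, as for Bst1, and within the 10 tumour libraries r came to 0.25 for Wdr25, 0.52 for Cpeb1 and 0.88 for Psmd14, a proteasome subunit gene. The libraries share their group structure, so each r is a description.

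Nt5e (chromosome 9, 88327197 to 88372092, forward strand) tended the other way from Bst1. It had 1.16, 0.257 and 2.69 CPM in Rosa26-Lmo2+Sca1-Cre, against 1.78, 1.60, 2.59 and 2.34 CPM in WT. Libraries of Sca1-Lmo2 held 0.433, 0.384, 0.655 and 0.849 CPM, the Rosa26-Lmo2+Mb1-Cre libraries 0.231 and 0.658 CPM, and the Rosa26-Lmo2+Aid-Cre library 1.27 CPM. Of the 10 tumour libraries, 9 lay below every WT library, and Rosa26-Lmo2+Sca1-Cre replicate 3 lay above them all. In that replicate 26.9% of the Nt5e counts could come from reads outside transcripts, and with these subtracted it was at 1.97 CPM, within the WT range of 1.55 to 2.54 CPM. The log2 fold change over WT was -0.59 (SE 0.660) in Rosa26-Lmo2+Sca1-Cre, -1.84 (SE 0.626) in Sca1-Lmo2 and -2.23 (SE 0.839) in Rosa26-Lmo2+Mb1-Cre. Without its replicate 3, Rosa26-Lmo2+Sca1-Cre was at -1.55. In Sca1-Lmo2 and Rosa26-Lmo2+Mb1-Cre every library was below WT, as for 16.9% and 32.0% of all genes.

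Nt5e passed the filter on low values with only 6 libraries at 1 CPM or more, 4 of them WT, so its entry into the fit rested largely on the group where it was high. Reads from outside transcripts could account for 46.9% of its counts in Rosa26-Lmo2+Sca1-Cre replicate 2 and 45.2% in Rosa26-Lmo2+Mb1-Cre replicate 1. The models did not differ by the test in Nt5e (adjusted p of 0.216, 0.340 and 0.749). Among the genes most like it over the 14 libraries were Ddhd2 (r = 0.91), Slc18a2 (0.91), Serpinc1 (0.90) and Neurl3 (0.88).

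Enpp1 (chromosome 10, 24637914 to 24712159, reverse strand) overlapped with WT in every model. It had 3.75, 3.57 and 2.49 CPM in Rosa26-Lmo2+Sca1-Cre, against 2.66, 1.56, 5.97 and 3.99 CPM in WT. Libraries of Sca1-Lmo2 held 2.1, 5.30, 1.15 and 2.57 CPM, the Rosa26-Lmo2+Mb1-Cre libraries 1.18 and 4.58 CPM, and the Rosa26-Lmo2+Aid-Cre library 2.56 CPM. Its log2 fold changes over WT were -0.12 (SE 0.614), -0.35 (SE 0.568) and -0.30 (SE 0.705), smaller than their errors. In each model the direction turned when 1 library was left out, up to 0.25 and 0.022 in Rosa26-Lmo2+Sca1-Cre and Sca1-Lmo2 without WT replicate 3, and to 0.37 in Rosa26-Lmo2+Mb1-Cre without its replicate 1. Reads from outside transcripts could account for 48% of its counts in Rosa26-Lmo2+Sca1-Cre replicate 3. Among the nearest patterns were those of Cep290 (r = 0.79), Lamp2 (0.79), Hook1 (0.74) and RP23-25K2.2 (0.73).

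Of the other promoters searched for the 6 motifs read in Cd38, that of Enpp1 held TGTGGT on the opposite strand, as did that of the second Entpd1 start (16.8% of all promoters hold it). The promoter of the first Entpd1 start held the RBPJ core, CAGCTG (in 16.3% of promoters) and CAGGTG (in 20.2%), and that of Nt5e held none of the 6 motifs.

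Other genes that handle extracellular NAD and nucleotides were read from lists chosen by function. In the list of other NAD and ADP-ribose ectoenzymes, none of 7 tested genes was called in any of the 3 models against WT by edgeR (0, 1 and 0 at an unadjusted p under 0.05, and by limma-voom 0 in each and by DESeq2 0, 1 and 0 called). Art3, an ADP-ribosyltransferase family gene that shares reads with the overlapping Cxcl10 and Cxcl11, was lower in Sca1-Lmo2 than in Rosa26-Lmo2+Sca1-Cre (-2.15, SE 0.61, adjusted p = 0.0459), but it did not hold when Rosa26-Lmo2+Sca1-Cre replicate 2 or Sca1-Lmo2 replicate 1, 2 or 3 was left out (adjusted p up to 0.175 over all alternatives).

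A list of 10 tested genes held other enzymes of nucleotide breakdown, their intracellular relatives and Dpp4. Of these, 1 was higher and 0 were lower in Rosa26-Lmo2+Sca1-Cre, 2 were higher and 3 lower in Sca1-Lmo2, and 1 was higher and 2 lower in Rosa26-Lmo2+Mb1-Cre, all against WT. The genes higher were Dpp4 in Rosa26-Lmo2+Sca1-Cre, Dpp4 and Entpd4 in Sca1-Lmo2, and Entpd4 in Rosa26-Lmo2+Mb1-Cre. The median log2 fold changes were 0.53, -0.52 and -0.52, beside 0.06, 0.05 and -0.01 over all genes. Dpp4 (CD26), a surface peptidase that also binds adenosine deaminase, rose in Rosa26-Lmo2+Sca1-Cre to 355, 143 and 306 CPM and in Sca1-Lmo2 to 582, 362, 381 and 127 CPM, against 61.5, 50.5, 76.9 and 82.7 CPM in WT. The log2 fold changes were 1.98 (SE 0.44, adjusted p = 0.0112) and 2.42 (SE 0.43, adjusted p = 0.00355), and both calls held in all alternatives run.

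Entpd4, an intracellular relative of Entpd1, rose by 1.43 in Sca1-Lmo2 (SE 0.36, adjusted p = 0.0165) and by 1.60 in Rosa26-Lmo2+Mb1-Cre (SE 0.42, adjusted p = 0.0132) against WT. It shares reads with the overlapping Gm16867 and is uncertain to that extent, and its calls were lost without Sca1-Lmo2 replicate 3 or WT replicate 1 in the first case (adjusted p up to 0.0618 over all alternatives) and without Rosa26-Lmo2+Mb1-Cre replicate 1 in the second (0.102). Enpp2 (autotaxin), which makes lysophosphatidic acid, had 0.0809 to 0.311 CPM in Sca1-Lmo2 and 1.48 to 2.73 CPM in Rosa26-Lmo2+Sca1-Cre. It reached 1 CPM only in the 3 libraries of Rosa26-Lmo2+Sca1-Cre and passed the filter through them alone, so these values are a description.

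P2rx7, an ATP-gated channel of T cells and macrophages, rose to 63.2, 45.7 and 96.7 CPM in Rosa26-Lmo2+Sca1-Cre, against 4.62, 4.44, 5.09 and 5.95 CPM in WT. The Sca1-Lmo2 values were 131, 29.7, 88.9 and 31.1 CPM. The Rosa26-Lmo2+Mb1-Cre pair had 15 and 11.7 CPM, and the Rosa26-Lmo2+Aid-Cre library 135 CPM. The lowest of these tumour values was above the highest WT value. The log2 fold change was 3.77 in Rosa26-Lmo2+Sca1-Cre (SE 0.49, adjusted p = 1.75e-03) and 3.8 in Sca1-Lmo2 (SE 0.48, adjusted p = 7.00e-04), and both calls held in all alternatives run. In Rosa26-Lmo2+Mb1-Cre, a value given here after it was seen, it was 1.41 (SE 0.51, adjusted p = 0.0486), and that call was lost without any 1 of the 6 libraries compared (adjusted p up to 0.192 without 1 library).

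Among the replicated models P2rx7 was lowest in Rosa26-Lmo2+Mb1-Cre, where Bst1 was highest. Rosa26-Lmo2+Mb1-Cre over Sca1-Lmo2 gave -2.40 for P2rx7 (SE 0.59, adjusted p = 0.0323), which did not hold when Sca1-Lmo2 replicate 1 or either Rosa26-Lmo2+Mb1-Cre library was left out (adjusted p up to 0.262 over all alternatives). Of the 11 P2 receptor and ATP release genes tested, 2 were higher than in WT in Rosa26-Lmo2+Sca1-Cre, 1 was in Sca1-Lmo2 and 3 were in Rosa26-Lmo2+Mb1-Cre, and 1 was lower, Panx1, an ATP release channel gene, in Rosa26-Lmo2+Mb1-Cre (-1.08, SE 0.28, adjusted p = 0.0122, lost without either Rosa26-Lmo2+Mb1-Cre library). Beside P2rx7, the genes higher were P2rx4 in Rosa26-Lmo2+Sca1-Cre and in Rosa26-Lmo2+Mb1-Cre, and P2ry6 in Rosa26-Lmo2+Mb1-Cre. These calls were lost in 9 of 14, 8 of 13 and 8 of 13 alternatives. The median log2 fold changes of the list were 0.83, -0.19 and -0.81.

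**Figure D5:**
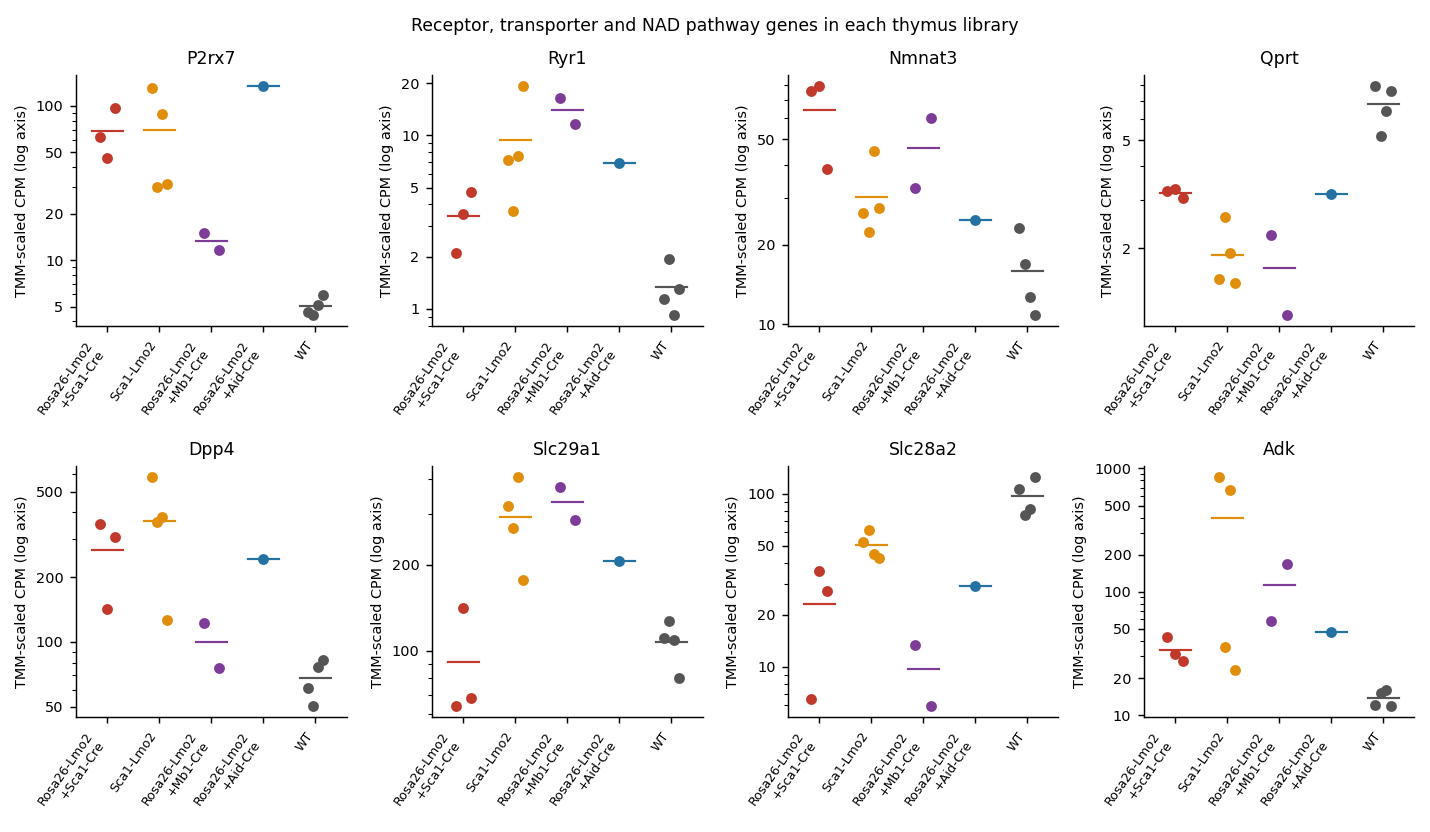
TMM-scaled CPM (log axis) of 8 genes of the receptor, calcium channel, NAD, adenosine and peptidase lists in every library, grouped by genotype with WT at the right, 1 point per library and a bar at each group mean. P2rx7 and Ryr1 are above and Qprt is below every WT library in all 10 tumour libraries, with P2rx7 at 11.7 to 15 CPM in Rosa26-Lmo2+Mb1-Cre and at 29.7 to 135 CPM in the other models.

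Of 10 tested genes of adenosine receptors, uptake and breakdown, 3 were higher and 0 lower in Sca1-Lmo2, 4 higher and 1 lower in Rosa26-Lmo2+Mb1-Cre, and 0 higher and 1 lower in Rosa26-Lmo2+Sca1-Cre. Whether these counts differ between the models was not tested. The median log2 fold changes were 0.59 for Sca1-Lmo2, 1.06 for Rosa26-Lmo2+Mb1-Cre and 0.10 for Rosa26-Lmo2+Sca1-Cre. Slc29a1, the equilibrative nucleoside transporter, rose by 1.45 in Sca1-Lmo2 (SE 0.31, adjusted p = 0.00754) and by 1.63 in Rosa26-Lmo2+Mb1-Cre (SE 0.36, adjusted p = 0.00615). Adora3, an adenosine receptor gene, rose by 1.72 in Sca1-Lmo2 (SE 0.42, adjusted p = 0.0134), in all alternatives run. Slc28a2, a concentrative nucleoside transporter, fell by 2.07 in Rosa26-Lmo2+Sca1-Cre (SE 0.48, adjusted p = 0.0128) and by 3.33 in Rosa26-Lmo2+Mb1-Cre (SE 0.61, adjusted p = 0.00303). Adk, the kinase that returns adenosine to AMP, had 849, 35.6, 675 and 23.4 CPM in Sca1-Lmo2, against 12.1, 15, 15.9 and 11.9 CPM in WT (4.85, SE 1.01, adjusted p = 0.00712), and the fold rested on replicates 1 and 3, which were far above replicates 2 and 4. Slc29a1 overlaps Gm17080, which had 0.244 times its counts. Adora3 overlaps Tmigd3, which had 2.17 times its counts, so its rise cannot be told apart from a rise of Tmigd3.

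Of 11 tested genes of NAD synthesis inside the cell, 1 was higher and 1 lower in Rosa26-Lmo2+Sca1-Cre, 0 and 2 for Sca1-Lmo2, and 1 and 2 for Rosa26-Lmo2+Mb1-Cre, beside the 26.9%, 22.3% and 35.1% called over all genes. Qprt, which makes NAD precursor from quinolinate, fell by 1.84 in Sca1-Lmo2 (SE 0.33, adjusted p = 0.00388), with 1.54, 2.61, 1.92 and 1.49 CPM against 7.93, 5.19, 6.41 and 7.61 CPM in WT. It also fell by 2.00 in Rosa26-Lmo2+Mb1-Cre (SE 0.44, adjusted p = 0.00626, and 0.0778 without its replicate 2) and by 1.08 in Rosa26-Lmo2+Sca1-Cre (SE 0.36, adjusted p = 0.0427), a call lost without any 1 of the 7 libraries compared (adjusted p up to 0.121 over all alternatives). Nmnat3, a gene of NAD synthesis in mitochondria, rose by 2.02 in Rosa26-Lmo2+Sca1-Cre (SE 0.36, adjusted p = 0.00527), with 75.9, 79.4 and 38.5 CPM against 23.1, 16.9, 12.7 and 10.9 CPM in WT. It shares its span with Gm28530, which had 0.655 times its counts.

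Among 9 targets of cyclic ADP-ribose, ADP-ribose and NAADP, the second messengers that BST1 and CD38 can form, 3 were higher and 0 lower in Rosa26-Lmo2+Sca1-Cre, 3 and 0 for Sca1-Lmo2, and 2 and 3 for Rosa26-Lmo2+Mb1-Cre. Ryr1, a ryanodine receptor calcium channel, rose in Sca1-Lmo2 to 7.18, 3.66, 7.61 and 19.3 CPM and in Rosa26-Lmo2+Mb1-Cre to 16.5 and 11.6 CPM, against 1.14, 1.94, 0.926 and 1.30 CPM in WT. The log2 fold changes were 2.83 (SE 0.51, adjusted p = 0.00370) and 3.40 (SE 0.57, adjusted p = 0.00201), and both held in all alternatives run. Ryr2 rose by 5.59 in Rosa26-Lmo2+Sca1-Cre (SE 1.35, adjusted p = 0.0140), at 14.2 to 28.5 CPM against 0.330 to 0.435 CPM in WT. The call was lost with the replicate block (adjusted p = 0.0598). No WT library reached 1 CPM, so Ryr2 passed the filter through tumour libraries alone, and the p-values carry that limit. It had 5 libraries at 1 CPM or more, 3 of them from this model. Ryr3 rose there by 2.77 (SE 0.65, adjusted p = 0.0131), but without replicate 3, the library with the most reads from outside transcripts, the call was lost (1.08, adjusted p = 0.0572), and it overlaps Aven, which had 2.63 times its counts.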

How the data were processed

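RNA from frozen thymus of mice was sequenced in 14 libraries, and the authors deposited raw counts per gene, summed over each gene's whole span with introns and without strand. The submitters' processing notes name TopHat2 2.1.0, bcl2fastq and mm10/GRCm38. Of 46946 genes, the 17087 with at least 1 CPM in at least 3 libraries were tested with the quasi-likelihood test of edgeR 4.0.16 (R 4.3.3), with TMM scaling, all 5 groups in 1 fit and Benjamini-Hochberg adjustment over all tested genes at 0.05. The standard error is the size of the log2 fold change divided by the square root of F. The Rosa26-Lmo2+Aid-Cre group had 1 library and no test. The fit was tested on simulated data with 200 changed genes. Alternatives were totals without TMM, other filters, only the 2 groups compared, a replicate block, leaving out each library, merging 2 alike libraries, limma-voom (limma 3.58.1) and DESeq2 1.42.0. Reads from outside transcripts were gauged on 10 long nerve-cell genes, a step chosen after seeing the data. Named genes were the ectoenzymes, genes overlapping them, tested genes within 500 kb of Bst1 and Cd38, up to 3 called genes per list with the smallest adjusted p in each comparison with WT, list genes called between models, and the 5 genes most alike in log2(CPM + 1) pattern. The ectoenzymes and the lists were chosen with earlier results of these data known. Of these, 1 ectoenzyme and 2 genes alike in pattern are not reported here.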

Additional observations from a re-analysis of the deposited data

Results flagged for a closer look

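Bst1 differed between 2 tumour models by the test of the difference itself, with a log2 fold change of 1.30 for Rosa26-Lmo2+Mb1-Cre over Sca1-Lmo2 (edgeR adjusted p = 0.0305). The single Rosa26-Lmo2+Aid-Cre library, which enters no test, was above the highest WT library in 3 of the 5 ectoenzyme genes described. It held 303 CPM of Bst1, against at most 3.53 CPM in WT, and 9.53 CPM of Cd38, against at most 5.38 CPM in WT. It held 4.31 CPM of Entpd1, against at most 4.10 CPM in WT.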

How the results depend on the processing

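Bst1 was higher than in WT in all 3 models under every alternative, by 5.81 to 6.38 in Rosa26-Lmo2+Sca1-Cre, 5.45 to 5.81 in Sca1-Lmo2 and 6.47 to 7.09 in Rosa26-Lmo2+Mb1-Cre. Its call for Rosa26-Lmo2+Mb1-Cre over Sca1-Lmo2 held in 8 of 14 alternatives. The genes called numbered 4589, 3815 and 6001 against WT (for Rosa26-Lmo2+Sca1-Cre, then Sca1-Lmo2 and then Rosa26-Lmo2+Mb1-Cre), 1690 for Sca1-Lmo2 over Rosa26-Lmo2+Sca1-Cre, 36 for Rosa26-Lmo2+Mb1-Cre over Rosa26-Lmo2+Sca1-Cre and 1800 for Rosa26-Lmo2+Mb1-Cre over Sca1-Lmo2. The replicate numbers did not pair the samples (same-number correlations -0.478 to 0.197), and with the replicate block the counts were 1367, 2527, 3188, 8, 0 and 2 in that order (2246 at an unadjusted p under 0.05 for the count of 0), with Bst1 at 1.15 (adjusted p = 0.112) for the last comparison. In the 3 comparisons between models, in the same order, fitting only the 2 groups gave 0, 0 and 5 (3915 and 1581 at an unadjusted p under 0.05 for the counts of 0), limma-voom 1070, 1 and 866, and DESeq2 3603, 1333 and 3981. No filter gave 3902 and 159 for the first 2 of these, and at least 10 counts in 3 libraries gave 3151 and 0 (3375 at an unadjusted p under 0.05). Without TMM the last 2 gave 12 and 956. Merging Sca1-Lmo2 replicates 1 and 3, the most alike pair of that group, gave 2541 for Sca1-Lmo2 over WT, 709 over Rosa26-Lmo2+Sca1-Cre and 957 for Rosa26-Lmo2+Mb1-Cre over Sca1-Lmo2.

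Leaving out 1 library gave 1970 to 5019 calls for Rosa26-Lmo2+Sca1-Cre, 2230 to 3855 for Sca1-Lmo2 and 1607 to 5464 for Rosa26-Lmo2+Mb1-Cre against WT, lowest without WT replicate 4, WT replicate 4 and Rosa26-Lmo2+Mb1-Cre replicate 2. It gave 336 to 2161 for Sca1-Lmo2 over Rosa26-Lmo2+Sca1-Cre (lowest without Sca1-Lmo2 replicate 1), 1 to 239 for Rosa26-Lmo2+Mb1-Cre over Rosa26-Lmo2+Sca1-Cre and 17 to 1856 for Rosa26-Lmo2+Mb1-Cre over Sca1-Lmo2 (both lowest without Rosa26-Lmo2+Mb1-Cre replicate 2). Between models, directions that turned were all of differences that were not called, and the cause was not tested. Against WT, Cd38 and Entpd1 in Rosa26-Lmo2+Mb1-Cre, Entpd1 in Rosa26-Lmo2+Sca1-Cre and Enpp1 in all 3 models turned when 1 library was left out. Enpp1 for Sca1-Lmo2 over Rosa26-Lmo2+Sca1-Cre turned to 0.074 without TMM and ranged from -0.75 to 0.024 without 1 library. For Rosa26-Lmo2+Mb1-Cre over Rosa26-Lmo2+Sca1-Cre, Cd38 turned to -0.040 without TMM, -0.11 with the replicate block and -0.38 with limma-voom (-1.60 to 0.83 without 1 library), Entpd1 to -0.14 with limma-voom (-1.31 to 1.10), and Enpp1 ranged from -1.47 to 0.49 without 1 library. For Rosa26-Lmo2+Mb1-Cre over Sca1-Lmo2, Nt5e turned to 0.20 with the replicate block and ranged from -1.32 to 0.18 without 1 library. Enpp1 there turned to -0.37 without TMM, -0.067 with no filter, -0.012 with at least 10 counts, -0.073 with the replicate block, -0.15 with the merged pair and -0.13 with limma-voom (-1.24 to 0.72 without 1 library). Fbxl5 in Rosa26-Lmo2+Sca1-Cre over WT turned to -0.024 without TMM. Nt5e had 8 to 137 counts per library, which limits its precision.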
